A study of Arabidopsis thaliana with 4 samples.

Results

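The genes described here are 10 Arabidopsis thaliana loci encoding BAHD acyltransferases of specialised metabolism, AT4G15390, AT4G15400 (BIA1), AT5G47950, AT5G47980, AT3G26040, AT1G24420, AT1G24430, AT3G30280, AT2G39980 and AT5G42830. A probe set was taken for a locus where the platform annotation named that gene alone, through its gene identifier or symbol, and 9 of the 10 loci had 1 such probe set among 13350 genes named in this way. BIA1 had 0 listed probe sets and is not analysed here. The 9 probe sets lack the suffix for probes that match several related sequences. The loci were chosen with differences between these groups of arrays known, so the differences of the 9 genes are given as descriptions and support nothing further. Transcripts were measured on 4 single-colour Affymetrix oligonucleotide arrays with total RNA of whole Col-0 seedlings that were 2 weeks old. All seedlings had grown without treatment on agar plates with 3% sucrose, at 22 °C and in a day of 16 h light and 8 h dark. Wild type (Col-0) gave 2 arrays, and plants titled as overexpressing At1g54160 gave the other 2. At1g54160 encodes NFYA5, which is a subunit of NF-Y, the transcription factor that recognises CCAAT boxes in promoters. In the series design these plants are instead an nfya5 mutant, and the titles were followed. NFYA5 itself had 0 listed probe sets, so its level could not check the label. The promoter of the transgene and the number of independent lines are not given in the sources used here.

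BAHD acyltransferases move an acyl group from a coenzyme A thioester to the hydroxyl or amino group of a plant metabolite, and the products include lignin precursors, acylated anthocyanins, cuticular wax components, volatile esters, modified triterpenes and inactivated brassinosteroids. The proteins share the HXXXD motif of the active site, after which the family is also called HXXXD-type acyltransferases. In Arabidopsis, AT5G47980 and AT5G47950 encode thalianol acyltransferases, which decorate a triterpene made mainly in roots, and lie near the other thalianol genes on the chromosome. BIA1 inactivates brassinosteroids when it is highly expressed. The functions of the remaining members are not described here.

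AT4G15390 and AT5G47950 showed the largest differences among the tested members, both with lower signals in the overexpressor arrays. The ratio of mean signals, overexpressor over wild type, was 0.68 for AT4G15390 and 0.665 for AT5G47950. AT2G39980 was also lower, by 14.4%, whereas AT5G42830 was 21.1% above wild type. AT5G47980 and AT1G24430 had overlapping signals in the groups, and the remaining 3 genes gave signals of at most 56.2. Signals are array intensities in arbitrary units, scaled by the authors to a target of 500 per array, and signals of different probe sets are not compared with each other. In whole seedlings, fewer cells of a type and less RNA per cell cannot be told apart.

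AT4G15390 lies in a stretch of chromosome 4 that also holds genes for triterpene synthases and cytochrome P450 enzymes. Its signal was 2510.5 and 2219.3 on the wild type arrays and 1495.5 and 1718.8 on the overexpressor arrays. Both overexpressor arrays lay below both wild type arrays, with ratios between 0.596 and 0.774 over the 4 pairings. The group means were 2365 ± 206 in wild type against 1607 ± 158 in the overexpressor arrays (SD, n = 2). On the log2(signal + 50) scale the difference, overexpressor minus wild type, was -0.54 ± 0.11 (SE), against gaps between replicates of 0.17 for wild type and 0.19 for the overexpressor arrays. Of all 13961 tested probe sets, 0.99% had a lower difference.

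AT5G47950, encoding a thalianol acyltransferase, had signals of 152.4 and 187.2 in wild type against 121.3 and 104.6 in the overexpressor arrays. The groups did not overlap, and the ratios of the pairings lay between 0.559 and 0.796. The means were 169.8 ± 24.6 and 112.9 ± 11.8 (SD, n = 2), and the log2 difference was -0.43 ± 0.17 (SE). Of the tested probe sets, 2.44% had a lower difference. The second thalianol acyltransferase gene, AT5G47980, had signals of 232.9 and 291.6 in wild type against 238.3 and 237.6 in the overexpressor arrays. Wild type replicate 1 thus lay below both overexpressor arrays and wild type replicate 2 above them. The log2 difference of AT5G47980 was -0.11 ± 0.14 (SE), and without wild type replicate 2 it was 0.03.

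AT2G39980 had signals of 1230.3 and 1192 in wild type against 1016.2 and 1057.6 in the overexpressor arrays. The groups did not overlap, and the replicates of this gene lay close together, with means of 1211 ± 27.1 and 1037 ± 29.3 (SD, n = 2). The log2 difference of AT2G39980 was -0.21 ± 0.10 (SE), and 28% of all tested probe sets had a difference at least as far from 0. AT1G24430 had signals of 171.9 and 198 in wild type against 160.2 and 175.4 in the overexpressor arrays, which overlapped. Its log2 difference was -0.11 ± 0.15 (SE).

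AT5G42830 was the 1 tested member with a positive difference. Its signal was 178 and 194.1 in wild type against 255.8 and 194.9 in the overexpressor arrays. The groups did not overlap, but overexpressor replicate 2 exceeded the higher wild type array by a ratio of 1.004 and the difference rested on overexpressor replicate 1. The log2 difference was 0.21 ± 0.16 (SE), and without overexpressor replicate 1 it was 0.05.

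**Figure D1:**
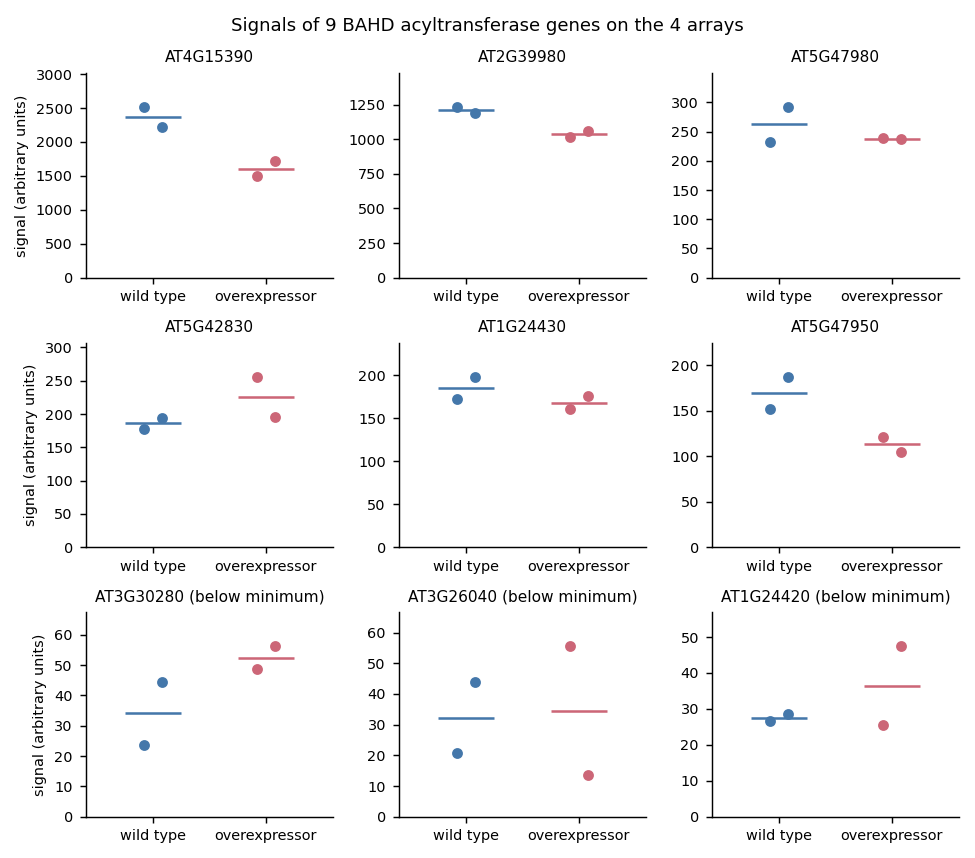
Signal in arbitrary units (vertical axes, each from 0) of the 9 BAHD genes with a probe set, by group. Points are single arrays, with replicate 1 on the left and replicate 2 on the right of each group, and lines are group means of 2 arrays. AT4G15390, AT2G39980 and AT5G47950 have both overexpressor arrays below both wild type arrays, and the bottom row shows the 3 genes whose mean signal was under the minimum of 100.

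The other 3 members had mean signals under 100 over the 4 arrays, the minimum for entering the test, and were not tested. AT3G26040 had signals of 20.8 and 43.8 in wild type against 55.5 and 13.5 in the overexpressor arrays, so that its replicates differed by more than its groups. AT1G24420, which directly neighbours AT1G24430, had 26.6 and 28.6 in wild type against 25.6 and 47.4 in the overexpressor arrays, with overlapping groups. AT3G30280 had 23.7 and 44.5 in wild type against 48.7 and 56.2 in the overexpressor arrays. Of these 3 dim members 1, AT3G30280, had groups that did not overlap, as had 34.8% of all 8785 probe sets under the minimum signal. Its ratios over the pairings ranged from 1.094 to 2.371.

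Considered together, 5 of the 6 tested members had a negative difference and 1 a positive one, with a median log2 difference of -0.16. Over all tested probe sets the median was 0.02, and 46.8% were negative. In the fit over all probe sets, limma's moderated test with Benjamini-Hochberg adjustment and a threshold of 0.05, 1 of the 6 tested members passed, AT4G15390, which was lower. Of all tested probe sets 1.29% passed, 0.759% as lower and 0.53% as higher. Since the members were chosen on this comparison, nothing is read from these shares. Groups that did not overlap were found for 4 of the 6 tested members, 3 lower and 1 higher, and for 48.1% of all tested probe sets, 22% lower and 26.1% higher. With wild type replicate 1 left out AT4G15390 no longer passed, at a log2 difference of -0.46, nor did it with overexpressor replicate 1 left out, at -0.45. It also did not pass with a constant variance prior, with no filter on low signals, or when the fit held only unshared probe sets naming 1 gene.

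The tested members had their highest signal on a wild type array in 5 cases and on an overexpressor array in 1. Their lowest signal was on an overexpressor array in 4 cases and on a wild type array in 2. The members were chosen on this comparison and the shares over all tested probe sets were not counted, so nothing is read from these counts. The gap between replicates, on the log2(signal + 50) scale, ranged from 0.04 to 0.27 in wild type and from 0.0035 to 0.32 in the overexpressor arrays over these 6 genes. Among the 3 dim members it reached 0.41 for wild type and 0.73 for the overexpressor arrays, the latter for AT3G26040.

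Other BAHD family genes, listed by locus from general knowledge with earlier results of these data known, showed values on both sides of 0. The members picked on this comparison are left out, so the values that remain depend on that choice. Of 48 listed genes 35 had a probe set naming them alone, 15 were tested, and 20 were under the minimum signal. Of the 15 tested genes, 1 was lower past the threshold (limma) and 0 were higher, beside 0.759% and 0.53% of all tested probe sets. An unadjusted p under 0.05 (limma) was found for 4 of the 15, and for 16.5% of all tested probe sets. The median log2 difference of the 15 genes was 0.04, with 8 positive and 7 negative values. Groups that did not overlap were found for 8 of 15, 4 lower and 4 higher, and for 48.1% of all tested probe sets. No difference between the members and the other listed family genes was tested.

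AT5G01210 fell by a log2 difference close to that of AT4G15390. Its signal was 2386.3 and 2301.1 in wild type against 1618 and 1687.5 in the overexpressor arrays. Both replicate pairs were tight, with means of 2344 ± 60.3 and 1653 ± 49.1 (SD, n = 2), and the groups were far apart. The log2 difference of AT5G01210 was -0.49 ± 0.09 (SE, adjusted p = 0.031, limma), lower in both overexpressor arrays than in either wild type array. Its adjusted p ranged from 0.00019 to 0.198 over the alternatives, and the call was lost when wild type replicate 1 (log2 difference -0.47, adjusted p = 0.070) or overexpressor replicate 1 (-0.46, adjusted p = 0.062) was left out. It was also lost with no filter on low signals (adjusted p = 0.198) and with a constant variance prior (adjusted p = 0.14), neither of which changes the difference.

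AT5G07080 had signals of 472.3 and 410.4 in wild type against 295.5 and 337.9 in the overexpressor arrays, which did not overlap. Its log2 difference of -0.42 ± 0.13 (SE) did not pass (limma, adjusted p = 0.14). AT5G07860 and AT5G07870, direct neighbours on chromosome 5, both had higher signals in the overexpressor arrays. AT5G07860 had 486.7 and 493.1 in wild type against 687.8 and 632.4 in the overexpressor arrays. For AT5G07870 the signals were 170.1 and 145.6 against 204.8 and 232.1. The groups of neither gene overlapped, and their log2 differences were 0.39 ± 0.11 and 0.37 ± 0.15 (SE), which did not pass (limma, adjusted p = 0.11 and 0.26). AT5G07850, the gene on the other side of AT5G07860, was dim, with signals of 14.2 and 2.9 in wild type against 3 and 3.3 in the overexpressor arrays.

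The 5 tested family genes with known roles that are named here had log2 differences between -0.12 and 0.18. HCT, which makes the shikimate esters of the lignin pathway, had a log2 difference of -0.12 ± 0.10 (SE), with signals of 1836.9 and 1719.3 in wild type against 1688.6 and 1566 in the overexpressor arrays. FACT, which makes the caffeate esters of fatty alcohols found in root waxes, had 0.10 ± 0.11. AT1G28680, which encodes the coumarin-forming enzyme COSY, had 0.04 ± 0.12. AT4G13840 (CER26), which acts in the elongation of wax precursors, had -0.0002 ± 0.15, and its overexpressor signals of 512.7 and 713.9 lay on either side of 652.9 and 561.7 in wild type. BAT1 (PIZ), an acyltransferase of brassinosteroids like BIA1, had 0.18 ± 0.19, with signals of 122.7 and 140 in wild type against 126 and 190.3 in the overexpressor arrays. Of these 5 genes 0 passed (limma), and 0 had an unadjusted p under 0.05. AT3G23840, listed as CER26-LIKE and also tested, had -0.03 ± 0.21 (SE) and did not pass (limma, adjusted p = 0.96).

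**Figure D2:**
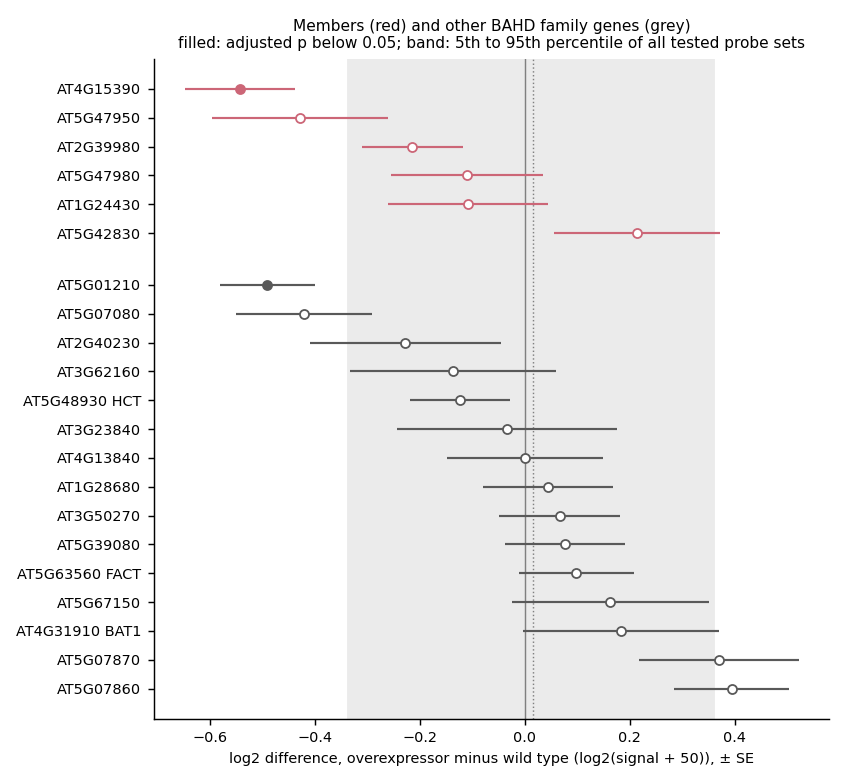
Log2 difference, overexpressor minus wild type, on the log2(signal + 50) scale with its standard error, for the 6 tested members (red) and the 15 other tested BAHD genes (grey). Filled points passed an adjusted p of 0.05, the grey band runs from the 5th to the 95th percentile of all 13961 tested probe sets (-0.34 to 0.36), and the dotted line is their median. AT4G15390 and AT5G47950 among the members, and AT5G01210, AT5G07080, AT5G07860 and AT5G07870 among the others, lie outside the band.

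Several members stand next to cytochrome P450 genes. The share of all genes that do so was not counted. By gene order in the TAIR10.1 assembly, AT4G15390 lies between CYP705A4 and CYP702A5, AT5G47980 lies beside CYP705A5, and AT3G30280 lies beside CYP702A8. BARS1 (baruol synthase) and PEN1, which encodes the arabidiol synthase, lie within 5 protein-coding genes of AT4G15390, and THAS1 (thalianol synthase) lies within 5 of AT5G47980. AT4G15390 and BIA1 are separated by 2 genes, as are AT5G47950 and AT5G47980. The 3 thalianol genes besides the acyltransferases, the 10 genes listed from the arabidiol and baruol region and 10 further triterpene and sterol genes had 0 listed probe sets naming them alone and are not analysed here. The same held for 10 of 11 genes of brassinosteroid synthesis and inactivation, the exception being BAT1.

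The genes around the members had differences on both sides of 0. Of 74 protein-coding genes within 5 positions of a member, 30 had a probe set and 17 were tested, of which 0 passed (limma). An unadjusted p under 0.05 (limma) was reached by 2 of the 17, and by 16.5% of all tested probe sets. These 17 had a median log2 difference of 0.01, from -0.23 to 0.32. In the stretch around the thalianol acyltransferase genes, AT5G47940 and AT5G47970 had log2 differences of 0.03 ± 0.14 and 0.06 ± 0.16 (SE), beside -0.43 for AT5G47950. AT5G47950 was chosen with this comparison known and did not pass (limma, adjusted p = 0.24), so nothing is read from this contrast. AT5G47930, which encodes a ribosomal protein of the S27 type, had signals of 6079.9 and 5196.7 in wild type against 7208.5 and 6843.3 in the overexpressor arrays. Its log2 difference was 0.32 ± 0.10 (SE, adjusted p = 0.14, limma). AT3G26020, near AT3G26040, had signals of 318.6 and 330.7 against 426.8 and 400.7, with a log2 difference of 0.31 ± 0.12 (adjusted p = 0.23). Around AT5G42830, AT5G42850 and AT5G42860 had 0.17 ± 0.10 and 0.15 ± 0.16, and U2AF35B, a splicing factor gene, had -0.21 ± 0.11. DFR, which encodes dihydroflavonol reductase of anthocyanin synthesis and also lies near AT5G42830, was under the minimum signal, with 75.9 and 68.7 in wild type against 111.3 and 132.3 in the overexpressor arrays.

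**Figure D3:**
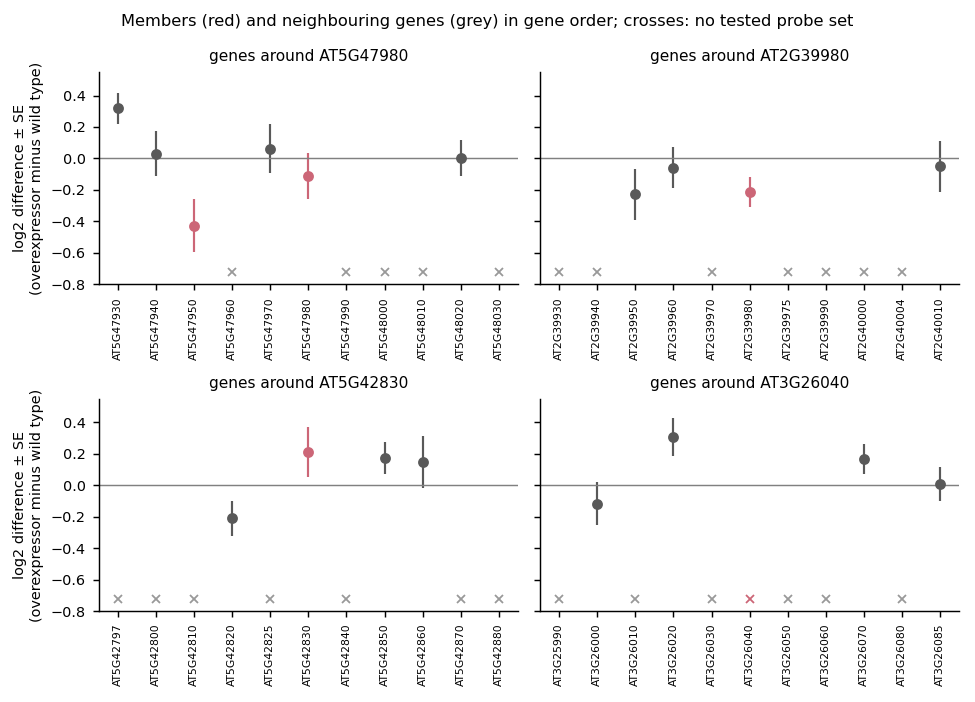
Log2 difference, overexpressor minus wild type, with its standard error for members (red) and neighbouring protein-coding genes (grey), placed in gene order around AT5G47980, AT2G39980, AT5G42830 and AT3G26040. Crosses mark genes without a tested probe set. In the first panel AT5G47950, a member chosen with this comparison known, lies at -0.43 between neighbours at 0.03 and 0.06. The neighbours were taken by position, so nothing is read from this contrast.

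The genes whose pattern over the 4 arrays was most like that of AT4G15390 were AT2G15580, AT3G22570 and AT2G21045. Likeness was the Euclidean distance between log2(signal + 50) values centred on each gene's mean over the 4 arrays, among 7490 tested probe sets that name 1 gene and are not members. The distances were 0.026, 0.058 and 0.068, and 11 genes lay within 0.1. AT2G15580 had signals of 860.9 and 759.2 in wild type against 489.5 and 580.9 in the overexpressor arrays. With 4 arrays a match of this kind is a description of these samples.

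**Figure D4:**
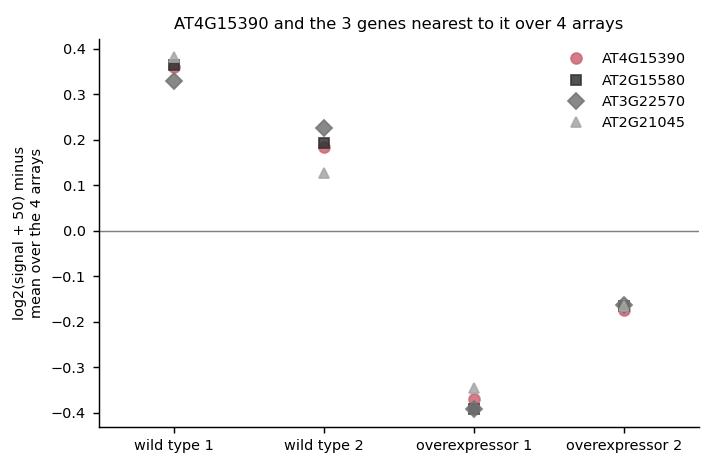
Log2(signal + 50) of each array minus the gene's mean over the 4 arrays (vertical axis) for AT4G15390 (red circles) and the 3 genes nearest to it. In each of the 4 genes wild type replicate 1 is highest and overexpressor replicate 1 is lowest. The 3 genes were picked for likeness over the 4 arrays, so this shared order follows from the choice.

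Markers of green tissue, root and the stomatal lineage were read on the same arrays, since thalianol acyltransferase transcripts are known from roots. All 8 markers had signals of 130.5 or more on every array, and 0 of 8 passed (limma), with 0 at an unadjusted p under 0.05. For root, PYK10, a beta-glucosidase gene, and EXPA7 and EXPA18, expansin genes of root hairs, had log2 differences of 0.11 ± 0.09, 0.11 ± 0.15 and -0.37 ± 0.17 (SE). EXPA18 had signals of 169.7 and 224.6 in wild type against 130.5 and 151.3 in the overexpressor arrays, which did not overlap. For PYK10 the groups did not overlap either, but the overexpressor arrays were higher, with 11463.2 and 12107.1 against 12419.2 and 13077.9. EXPA7 had overlapping groups. Of the tested probe sets, 3.92% had a lower difference than EXPA18, whose unadjusted p was 0.053 (limma, adjusted p = 0.31). The photosynthesis genes LHCB4.1, LHCB4.2 and RCA, for green tissue, had 0.01, -0.04 and -0.06, and the stomatal regulators FAMA (FMA) and SPCH had 0.10 and 0.07. The part of root content in the values of AT5G47950 was not tested.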

How the data were processed

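The authors deposited 1 column of linear intensities for each array. MAS5 made these signals, per the submitters' processing notes, with global scaling to a target of 500, per the labels. The MAS5 version and the genome build are not given in the sources used here. Such scaling hides a change shared by most transcripts. Median signals were 180.9 to 193.6 over the 4 arrays without controls, and log2 signals correlated at 0.989 and 0.988 within groups and at 0.979 to 0.985 across them. The number of arrays limits the precision. No label says that replicates came from separate cultures, so the spread behind the p-values may be technical.

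Of 22810 probe sets, 13513 named 1 gene in the platform annotation, 503 several, 8730 none, and 64 were controls. Of those naming 1 gene, 13508 matched the TAIR10.1 gene table by gene identifier or unique symbol. That table has no descriptions, so the plan to keep only listed family genes described as transferases could not be followed, and the family is listed by locus from general knowledge. For each gene the brightest probe set naming it alone was used.

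Controls were left out, 50 was added before log2, and 13961 probe sets whose mean signal reached 100 were tested with limma 3.58.1 in R 4.3.3 (lmFit, eBayes with an intensity trend, two-sided, Benjamini-Hochberg over all of them). With 2 arrays in each group the smallest p of an exact permutation test is 0.333. Differences on this scale understate the change of dim genes. Alternatives were other pseudocounts, filters, scalings and variance priors, a replicate block, each array left out, and only unshared probe sets naming 1 gene. The members and lists were chosen with earlier results of these data known. The text names every member, the genes of each list that passed or else the 2 with the smallest p, neighbours within 5 genes, markers, and the 3 genes most like the member with the smallest p. The family genes with known roles, AT5G07080, AT5G07850, AT5G07860, AT5G07870 and the dim genes of the closing section were named after their values were seen. All 4 arrays were used.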

Additional observations from a re-analysis of the deposited data

How the results depend on the processing

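Of the 6 tested members 1 passed, and 1 passed under 10 of 15 alternatives. The count was 0 with no filter on low signals, with a constant variance prior and with only unshared probe sets naming 1 gene, and 0 to 1 when 1 array was left out. Among the other family genes 1 passed, against 0 with no filter, 0 with a constant prior, 0 among the 5 tested genes whose listed symbol stands in the gene table (chosen after seeing the data), and 0 to 1 when 1 array was left out. The replicate block gave 3 such genes, adding AT5G07860 and AT5G07080, and kept 1 member. The 5 genes with a listed symbol in the gene table hold AT3G23840 but not AT1G28680, unlike the 5 with known roles above. Of the 17 tested neighbours 0 passed, and 1, AT5G47930, with the replicate block (adjusted p = 0.0079). The labels do not pair the replicate numbers, and deviations of the arrays numbered 1 correlated at 0.056. Over all probe sets 180 passed, 1075 with the replicate block, 1 with no filter, 9 with a constant prior, 56 with only unshared probe sets naming 1 gene, and 101 to 489 when 1 array was left out. The cause of these changes was not tested. Some fits also differed in size, with 22746 probe sets with no filter and 7469 with only unshared ones, against 13961 in the main fit. The median of the tested members, -0.16, lay between -0.22 and -0.11 under all alternatives. The genes behind it changed with the filter, being 9 members with no filter (-0.11) and 3 with a minimum mean signal of 250 (-0.21). AT5G47980 had the opposite sign under 1 of 15. Leaving out 1 array leaves a lone sample that is assumed to vary like the other group. No member had a second probe set, so that alternative was not run.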

Other observations

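Some of the 20 dim BAHD family genes had groups that did not overlap, 5 lower and 3 higher in the overexpressor arrays, beside 34.8% of all 8785 probe sets under the minimum signal. They were not tested, and the ones named here were picked after their values were seen. AT5G39090, which directly neighbours AT5G39080, had signals of 36.3 and 24 in wild type against 4.1 and 5.6 in the overexpressor arrays, whereas AT5G39080 had overlapping signals of 453.2 and 489.5 against 485.1 and 513.8. AT1G27620 had 42.3 and 29.7 in wild type against 14.1 and 7.3 in the overexpressor arrays. AT5MAT, an anthocyanin malonyltransferase gene, had 33.6 and 14.3 against 10.5 and 5.2, while DFR of the same pathway had higher signals in the overexpressor arrays. The 3 higher family genes were AT1G03390, AT1G78990 and AT3G47170. AT1G03390 had 16.4 and 9.4 in wild type against 21.4 and 21.2 in the overexpressor arrays. The signals were 38.8 and 43.1 against 43.5 and 68 for AT1G78990, and 16.3 and 20.1 against 40.7 and 20.6 for AT3G47170.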
